A study of Homo sapiens with 8 samples.

Results

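The 10 genes described here encode proteins of the lysosomal membrane and were taken by symbol: LAMP1, LAMP2, CD63, LAPTM4A and LAPTM5, which span the membrane as structural or trafficking proteins, and MCOLN1, TPCN1, TPCN2, CLCN7 and TMEM175, which carry ions across it. All 10 were listed among the 17912 genes measured, and all 10 passed the filter on low values that 15542 genes passed. RNA was sequenced from NKM-1, an established human myeloid leukemia line labelled wildtype, after 48 h with SF153 at 30 uM (4 libraries) or after the solvent DMSO for the same time (4 libraries). SF153 is described by the series as a small molecule against splicing factors with a U2AF homology motif, and lysosome acidification is among the processes the series names. The labels divide the libraries into 2 batches, each holding 2 libraries per treatment. Nothing in the labels says that both libraries of a treatment and batch came from separate cultures, so p-values measure only the spread between libraries, which may be technical.

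The lysosome is bounded by a single membrane whose inner face is covered by heavily glycosylated proteins, chiefly LAMP1 and LAMP2, which shield it from the enzymes inside. Proton pumping by the V-ATPase acidifies the lumen, and ion channels and exchangers let other ions move so that pumping can go on and so that calcium can be released. Many lysosomal genes carry an E-box element in their promoters that is bound by the transcription factors TFEB and TFE3 when cells are starved or lysosomes are stressed.

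Of the 10 genes, 7 differed between treatments, in opposite directions by role. The membrane proteins LAMP1, LAMP2, LAPTM4A and LAPTM5 fell in SF153, and the channel and exchanger genes MCOLN1, TPCN1 and CLCN7 rose in SF153. CD63, TMEM175 and TPCN2 did not pass the test. LAPTM4A had the largest difference of the 10 in size, -1.59 ± 0.18 on the log2 scale (SE), and did so in all 24 alternatives. MCOLN1 had a difference of 0.70 ± 0.18 and CLCN7 of 0.57 ± 0.08; MCOLN1 was the larger in 19 of the alternatives and CLCN7 in 5, among them the fit without the first SF153 library of batch 1 (0.52 for MCOLN1 and 0.57 for CLCN7). The test was limma with an intensity trend on log2(signal + 1), two-sided, with Benjamini-Hochberg adjustment over all 15542 genes tested and a threshold of 0.05. The 7 of 10 genes called compare with 37.2% of all genes tested, the 3 called higher with 13% and the 4 called lower with 24.3%. In 7 of the 10 genes all 4 SF153 libraries lay on one side of all 4 DMSO libraries, as they did for 36.8% of genes tested. The median log2 difference of the 10 genes was -0.27, beside -0.034 for all genes. An unadjusted p under 0.05 was reached by 9 of the 10 genes and by 45.9% of all genes. Without both SF153 libraries of batch 1, 8 of the 10 genes were called, beside 33.3% of all genes, and without both SF153 libraries of batch 2, 7 were, beside 26.2%.

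**Figure D1:**
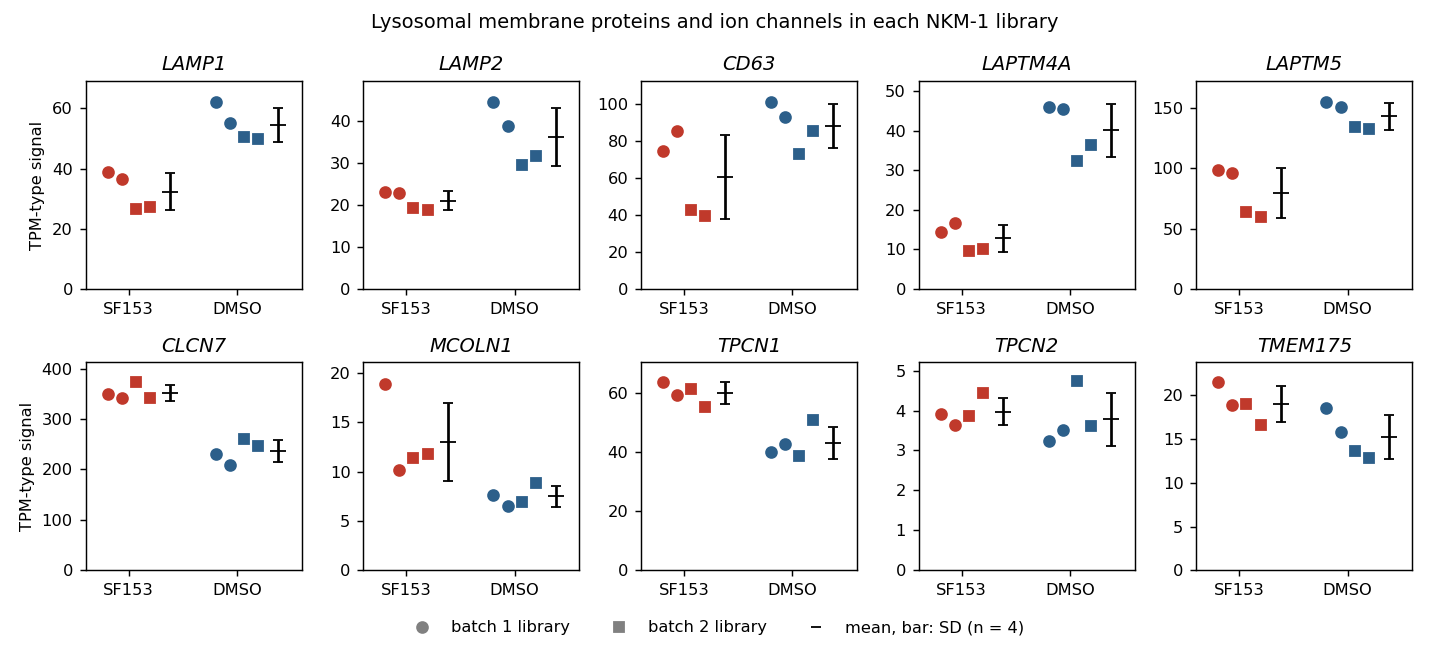
Signal of the 10 genes in each library, SF153 (red) left of DMSO (blue). Circles are batch 1 libraries, squares are batch 2 libraries, and the black bar is the mean with its SD over 4 libraries; the 2 groups of libraries are apart in 7 panels and overlap for CD63, TPCN2 and TMEM175.

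The deposited files call the values both CPM and TPM. If they are TPM they are scaled per transcript length and levels can be set side by side between genes; the sources used here do not settle this, so an order of levels between genes holds on that condition. The number of reads behind the values is unknown. Total RNA was used after removal of ribosomal RNA, which keeps unspliced and noncoding RNA beside mRNA. The columns summed to between 828381 and 1022007 in SF153 and between 990815 and 1027119 in DMSO. The low sums, 828381 and 835840, were those of the SF153 libraries of batch 2, and every other library had at least 990815. The part of these sums in the batch differences given below was not tested. Mitochondrial genes held 9.17% to 16.8% of the signal in SF153 and 9.38% to 9.63% in DMSO, and the upper value of SF153 was that of both batch 2 libraries. Of 11 myeloid and blood cell markers, 9 were in the files, each with a mean signal of at least 1, and their summed signal was 1094 to 1338 in SF153 and 1596 to 1747 in DMSO. The mean of these markers was lower in SF153 for MPO (469.6 in SF153 and 740.3 in DMSO), LYZ (112.1 in SF153 and 220.9 in DMSO) and FLT3 (55.1 in SF153 and 129.9 in DMSO). So it was for CEBPA (51.7 in SF153 and 87.6 in DMSO), PTPRC (213.6 in SF153 and 236.6 in DMSO) and SPI1 (66.2 in SF153 and 74.2 in DMSO). The mean was higher in SF153 for CD33 (98.5 in SF153 and 74.2 in DMSO), CSF3R (86.1 in SF153 and 75.2 in DMSO) and ITGAM (41.9 in SF153 and 31.2 in DMSO). None of the epithelial, erythroid and fibroblast markers was listed. Of 5 lymphoid markers, CD79A was listed, at 3.39 to 10.1 in SF153 and 24.7 to 29.4 in DMSO. The part of these shifts in the results was not tested. In bulk RNA, fewer cells of a type and less RNA per cell cannot be told apart.

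Promoter windows from RefSeq on GRCh38.p14, which run from 250 bases before to 50 bases after an annotated start, were at hand for 9 of the 10 genes, as 17 windows in all. They were searched for the E-box hexamer CACGTG, which reads the same on both strands. The 4 windows that hold it, those of LAMP1, CD63, MCOLN1 and CLCN7, are printed 5′ to 3′ on the strand of the gene because they show how differently the hexamer is placed among the genes; capitals mark each copy. LAMP1 is on the plus strand at chr13:113296989-113297288, CD63 on the minus strand at chr12:55728960-55729259, MCOLN1 on the plus strand at chr19:7522374-7522673 and CLCN7 on the minus strand at chr16:1474979-1475278.
LAMP1: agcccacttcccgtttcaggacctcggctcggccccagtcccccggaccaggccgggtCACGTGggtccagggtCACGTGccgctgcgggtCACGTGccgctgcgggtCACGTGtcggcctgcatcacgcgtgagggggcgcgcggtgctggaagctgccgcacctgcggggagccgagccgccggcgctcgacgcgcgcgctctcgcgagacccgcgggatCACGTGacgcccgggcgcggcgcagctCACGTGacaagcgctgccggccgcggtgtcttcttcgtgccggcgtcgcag
CD63: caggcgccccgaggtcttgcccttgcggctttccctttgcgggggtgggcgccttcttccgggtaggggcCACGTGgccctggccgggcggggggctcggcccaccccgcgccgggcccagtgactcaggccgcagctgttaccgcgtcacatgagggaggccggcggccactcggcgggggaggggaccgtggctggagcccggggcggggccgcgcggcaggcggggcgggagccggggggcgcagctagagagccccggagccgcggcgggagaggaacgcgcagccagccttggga
MCOLN1: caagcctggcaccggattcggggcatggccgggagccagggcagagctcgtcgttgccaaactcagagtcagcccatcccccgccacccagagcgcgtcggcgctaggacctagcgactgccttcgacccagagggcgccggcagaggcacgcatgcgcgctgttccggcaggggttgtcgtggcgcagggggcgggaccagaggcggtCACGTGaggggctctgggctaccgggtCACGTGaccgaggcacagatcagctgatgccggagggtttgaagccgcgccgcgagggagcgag
CLCN7: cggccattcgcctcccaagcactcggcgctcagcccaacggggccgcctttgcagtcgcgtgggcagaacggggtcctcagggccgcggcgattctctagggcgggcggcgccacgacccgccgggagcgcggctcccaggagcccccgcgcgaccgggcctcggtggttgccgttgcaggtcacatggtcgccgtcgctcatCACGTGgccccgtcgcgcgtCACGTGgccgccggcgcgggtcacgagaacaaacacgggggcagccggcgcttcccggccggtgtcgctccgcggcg

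LAMP1 held 6 copies, at -192, -176, -159, -142, -28 and -1 from the annotated start, counted at the first base of each. MCOLN1 held 2 copies, at -41 and -14, and CLCN7 held 2, at -47 and -27. CD63 held 1 copy, at -180, in 1 of its 8 windows. Over all 35116 windows of the RefSeq table, 7.26% held the hexamer, 0.664% held at least 2 copies, and 1 window, that of LAMP1, held 5 or more. The longer form TCACGTGA, which contains the hexamer and is part of the CLEAR element of lysosomal genes, was in the LAMP1 and MCOLN1 windows and in 0.98% of all windows. The windows of TPCN1, TPCN2, TMEM175, LAPTM4A and LAPTM5 held no copy, and no window of LAMP2 was used here. Of the 4 genes with a copy, LAMP1 fell, MCOLN1 and CLCN7 rose and CD63 was not called. Whether the copies bear on these directions was not tested.

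**Figure D2:**
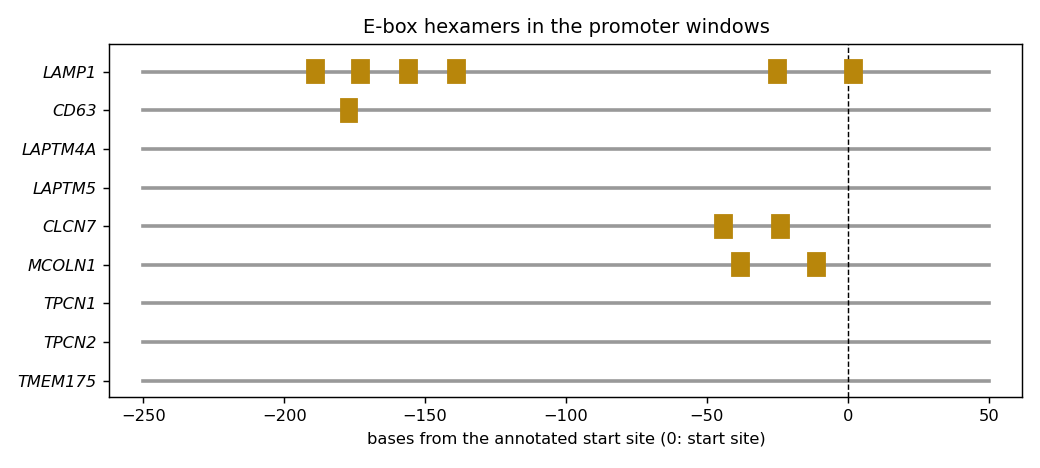
Positions of the hexamer CACGTG (gold) in the promoter windows of 9 genes, in bases from the annotated start site, marked by the dashed line. For CD63 the window with a copy is drawn of its 8; LAMP1 holds 6 copies, MCOLN1 and CLCN7 hold 2 each, and 5 genes hold none.

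LAMP1 and LAMP2 are the most abundant glycoproteins of the lysosomal membrane, and LAMP2 is also needed for autophagosomes to fuse with lysosomes and, as 1 of its splice forms, for chaperone-mediated autophagy. LAMP1 (chr13:113297241-113323672, plus strand) had a signal of 38.8 and 36.6 in the batch 1 SF153 libraries and 26.7 and 27.3 in those of batch 2, against 62.2 and 55.0 in the batch 1 DMSO libraries and 50.6 and 49.8 in those of batch 2. Every SF153 library was below every DMSO library, and batch 2 was the lower batch in both treatments. The mean was 32.3 ± 6.21 in SF153 and 54.4 ± 5.66 in DMSO (SD, n = 4 each), a log2 difference of -0.75 ± 0.14 (SE; limma, adjusted p = 0.00211).

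LAMP2 (chrX:120427827-120469365, minus strand) had 23.2 and 22.8 in the batch 1 SF153 libraries and 19.4 and 18.9 in those of batch 2, against 44.6 and 38.8 in the batch 1 DMSO libraries and 29.5 and 31.8 in those of batch 2. The groups did not overlap, and the SF153 libraries lay closer together than the DMSO libraries. The mean was 21.0 ± 2.23 in SF153 and 36.2 ± 6.89 in DMSO, a log2 difference of -0.74 ± 0.14 (limma, adjusted p = 0.00232). The splice forms of LAMP2 cannot be told apart in values per gene. The ratio of LAMP1 to LAMP2 within a library was 1.53 ± 0.14 in SF153 and 1.52 ± 0.15 in DMSO (SD, n = 4 each), with overlapping values. The log2 difference of this ratio was 0.22 within batch 1 and -0.22 within batch 2, so the near-equal means join opposite batches. This and the later ratios were chosen after the values were seen and are given without a test.

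LAPTM4A and LAPTM5 belong to a family of small proteins that span the lysosomal membrane several times. LAPTM5 is made mainly in blood cells, where it guides surface receptors to lysosomes, and LAPTM4A is made in most cells. LAPTM4A (chr2:20032650-20052028, minus strand) had 14.5 and 16.8 in the batch 1 SF153 libraries and 9.68 and 10.2 in those of batch 2, against 46.0 and 45.4 in the batch 1 DMSO libraries and 32.4 and 36.5 in those of batch 2. The highest SF153 library was well below the lowest DMSO library. The mean was 12.8 ± 3.45 in SF153 and 40.1 ± 6.71 in DMSO, a log2 difference of -1.59 ± 0.18 (limma, adjusted p = 0.000174).

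LAPTM5 (chr1:30732469-30757820, minus strand) had 98.6 and 96.4 in the batch 1 SF153 libraries and 63.6 and 59.8 in those of batch 2, against 154.9 and 150.8 in the batch 1 DMSO libraries and 134.0 and 132.6 in those of batch 2. The groups were apart, and within each treatment the batches were apart as well. The mean was 79.6 ± 20.8 in SF153 and 143.1 ± 11.4 in DMSO, a log2 difference of -0.87 ± 0.17 (limma, adjusted p = 0.00274). The log2 difference was -0.64 in batch 1 and -1.10 in batch 2, and the difference between batches had an unadjusted p of 0.00145 and an adjusted p of 0.0965 (limma, interaction of treatment and batch), which did not pass the threshold. Without both SF153 libraries of batch 2 the log2 difference of LAPTM5 was -0.55. The ratio of LAPTM4A to LAPTM5 within a library was 0.161 ± 0.013 in SF153 and 0.279 ± 0.027 in DMSO, with no overlap.

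CD63 is a tetraspanin of late endosomes and lysosomes that is also carried out of the cell on exosomes. CD63 (chr12:55725323-55729707, minus strand) had 74.6 and 85.7 in the batch 1 SF153 libraries and 42.8 and 39.6 in those of batch 2, against 101.1 and 93.2 in the batch 1 DMSO libraries and 73.1 and 85.8 in those of batch 2. The SF153 libraries of batch 2 were below every DMSO library, whereas those of batch 1 lay within the range of DMSO. The mean was 60.7 ± 23.0 in SF153 and 88.3 ± 11.9 in DMSO, and the log2 difference of -0.60 ± 0.24 was not called (limma, adjusted p = 0.0748).

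The value of CD63 depended on the libraries compared and on the scaling. The log2 difference was -0.28 in batch 1 (limma, adjusted p = 0.113) and -0.93 in batch 2 (limma, adjusted p = 0.00377). The difference between batches had an unadjusted p of 0.00351 and an adjusted p of 0.160. CD63 was called lower with batch as a block (limma, adjusted p = 0.00768) and without both SF153 libraries of batch 1 (-1.07, adjusted p = 0.000438), and was not called without both SF153 libraries of batch 2 (-0.13, adjusted p = 0.512). It was also called lower without the first SF153 library of batch 1 (-0.73, adjusted p = 0.0494) or without the second (-0.79, adjusted p = 0.0193). With the possibly shared libraries averaged by treatment and batch, CD63 was not called (-0.60, adjusted p = 0.219). The scaling moved it too, to -0.26 without mitochondrial and small RNA genes (adjusted p = 0.324) and to -0.22 with the trend on transcript length and signal removed (adjusted p = 0.511). The SF153 libraries of batch 2 were those with 16.8% of their signal in mitochondrial genes and with the lowest column sums. With one total for all libraries, CD63 was at -0.47 (limma, adjusted p = 0.0710). The part of this share and of the sums in the value and in its batch difference was not tested. None of the 10 genes was called for a difference between batches, beside 178 of 15542 genes (1.15%), and 2 of the 10, CD63 and LAPTM5, had an unadjusted interaction p under 0.05, as did 1568 genes.

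MCOLN1, or TRPML1, is the calcium-releasing cation channel of late endosomes and lysosomes, opened by the lipid PI(3,5)P2 and lost in mucolipidosis. MCOLN1 (chr19:7522626-7534009, plus strand) had 18.9 and 10.1 in the batch 1 SF153 libraries and 11.4 and 11.8 in those of batch 2, against 7.65 and 6.55 in the batch 1 DMSO libraries and 6.90 and 8.91 in those of batch 2. All SF153 libraries were above all DMSO libraries, and the first SF153 library of batch 1 stood above the other SF153 libraries. The mean was 13.1 ± 3.95 in SF153 and 7.50 ± 1.04 in DMSO, a log2 difference of 0.70 ± 0.18 (limma, adjusted p = 0.0147). Within single batches it was not called, at 0.88 in batch 1 (limma, adjusted p = 0.0927) and 0.51 in batch 2 (limma, adjusted p = 0.105). With a pseudocount of 10, the log2 difference of MCOLN1 was 0.38 (limma, adjusted p = 0.0205). The gene overlaps PNPLA6 and AC008878.2 on the same strand in GENCODE release 29, so reads of the overlap may have been assigned to any of them. TPCN1 overlaps AC089999.2 and MIR6762 on the same strand and IQCD on the opposite strand. CD63, TPCN2, CLCN7 and LAPTM5 overlap other annotated genes, on the same strand for all but CD63. The same doubt holds for those stretches.

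TPCN1 and TPCN2 encode the two-pore channels, which let sodium and calcium leave endosomes and lysosomes in response to PI(3,5)P2 and the messenger NAADP. TPCN1 (chr12:113221050-113298585, plus strand) had 63.8 and 59.4 in the batch 1 SF153 libraries and 61.4 and 55.3 in those of batch 2, against 40.2 and 42.7 in the batch 1 DMSO libraries and 38.8 and 51.0 in those of batch 2. The lowest SF153 library was above the highest DMSO library by a small margin. The mean was 60.0 ± 3.62 in SF153 and 43.2 ± 5.48 in DMSO, a log2 difference of 0.47 ± 0.10 (limma, adjusted p = 0.00405). Within batch 2 alone it was 0.38 and not called (limma, adjusted p = 0.133).

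TPCN2 (chr11:69048897-69162440, plus strand) had the lowest level of the 10 genes in both treatments. The signal was 3.92 and 3.64 in the batch 1 SF153 libraries and 3.87 and 4.44 in those of batch 2, against 3.25 and 3.52 in the batch 1 DMSO libraries and 4.74 and 3.61 in those of batch 2. The groups overlapped throughout, with means of 3.97 ± 0.34 in SF153 and 3.78 ± 0.66 in DMSO. The log2 difference was 0.06 ± 0.15 and was not called (limma, adjusted p = 0.766). The ratio of TPCN1 to TPCN2 within a library was 15.2 ± 1.86 in SF153 and 11.7 ± 2.51 in DMSO, with overlapping values.

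CLCN7 exchanges chloride for protons across the lysosomal membrane and needs its partner subunit OSTM1 to be stable there; loss of either causes osteopetrosis. CLCN7 (chr16:1444934-1475580, minus strand) had the highest signal of the 10 genes in every library. It had 350.1 and 340.9 in the batch 1 SF153 libraries and 373.3 and 340.8 in those of batch 2, against 230.9 and 209.5 in the batch 1 DMSO libraries and 260.4 and 246.7 in those of batch 2. The groups were far apart and the libraries of each treatment lay close together. The mean was 351.3 ± 15.3 in SF153 and 236.9 ± 21.9 in DMSO, a log2 difference of 0.57 ± 0.08 (limma, adjusted p = 0.000489). Under quantile normalization the log2 difference was 1.36, and 0.91 when mitochondrial and small RNA genes were left out, both called.

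OSTM1 was not called. Its mean signal was 12.5 ± 0.596 in SF153 and 12.4 ± 1.01 in DMSO, a log2 difference of 0.01 ± 0.10 (limma, adjusted p = 0.921). The ratio of CLCN7 to OSTM1 within a library was 28.1 ± 2.09 in SF153 and 19.2 ± 2.71 in DMSO, and the groups did not overlap. The ratio of CLCN7 to LAMP1, an exchanger gene against a membrane protein gene, was 11.2 ± 2.41 in SF153 and 4.41 ± 0.748 in DMSO. Each of these genes had its groups apart, in opposite directions, so their ratio could not overlap and adds no separate observation.

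TMEM175 is a potassium and proton channel of lysosomes, and variation at its gene is linked to the risk of Parkinson disease. TMEM175 (chr4:932387-958656, plus strand) had 21.6 and 19.0 in the batch 1 SF153 libraries and 19.0 and 16.6 in those of batch 2, against 18.5 and 15.9 in the batch 1 DMSO libraries and 13.7 and 12.8 in those of batch 2. Within each batch both SF153 libraries were above both DMSO libraries, but the groups overlapped across batches. The mean was 19.0 ± 2.03 in SF153 and 15.2 ± 2.53 in DMSO, and the log2 difference of 0.31 ± 0.13 was not called (limma, adjusted p = 0.0881). It was called higher with batch as a block (limma, adjusted p = 0.0361) and without the first DMSO library of batch 1 (0.40, adjusted p = 0.0352), and not with libraries averaged by treatment and batch (0.31, adjusted p = 0.223). It was also called under median-of-ratios scaling (0.38, adjusted p = 0.0426), scaling to one total (0.43, adjusted p = 0.0324), quantile normalization (0.51, adjusted p = 0.00739), without mitochondrial and small RNA genes (0.63, adjusted p = 0.00161) and with the trend on transcript length and signal removed (0.57, adjusted p = 0.00656).

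**Figure D3:**
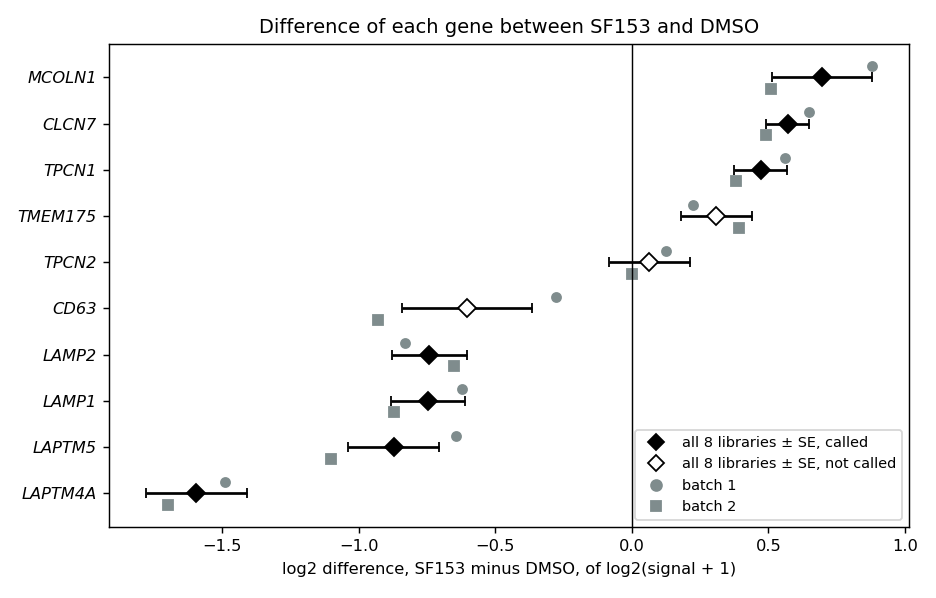
Log2 difference of each gene, SF153 minus DMSO, on log2(signal + 1). Diamonds give the value over all 8 libraries with its SE, filled where limma called the gene; grey circles and squares give batch 1 and batch 2. Both batches lie on the same side of 0 for each gene, with TPCN2 in batch 2 next to 0.

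In SF153 the order of mean levels was CLCN7, LAPTM5, CD63, TPCN1, LAMP1, LAMP2, TMEM175, MCOLN1, LAPTM4A and TPCN2. The ranges over libraries overlapped between LAPTM5 and CD63, between CD63 and TPCN1, and between all neighbours from LAMP2 to LAPTM4A. Within each library, however, LAPTM5 was above CD63, LAMP2 above TMEM175 and TMEM175 above MCOLN1 in 4 of 4 SF153 libraries, whereas CD63 was above TPCN1 in 2 of 4 and MCOLN1 above LAPTM4A in 3 of 4. In DMSO the order was CLCN7, LAPTM5, CD63, LAMP1, TPCN1, LAPTM4A, LAMP2, TMEM175, MCOLN1 and TPCN2, with overlapping ranges between neighbours from LAMP1 to LAMP2. Within DMSO libraries LAMP1 was above TPCN1 in 3 of 4, TPCN1 above LAPTM4A in 2 of 4 and LAPTM4A above LAMP2 in 4 of 4. TPCN1 was above LAMP1 in SF153 and its range overlapped that of LAMP1 in DMSO. LAPTM4A lay beside LAMP2 in DMSO and beside MCOLN1 in SF153.

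The values are relative within a library and the columns do not share one total, so the scaling between libraries bears on every direction. Small RNA and mitochondrial genes together took 49.7% to 56.2% of the signal in SF153 and 43.6% to 47.9% in DMSO. Leaving them out and rescaling raised the median over all genes by 0.30 on the log2 scale, and gave 5382 genes called higher and 2115 called lower, beside 2015 higher and 3770 lower with the deposited scaling. The median also moved up by 0.10 under quantile normalization, with 3230 higher and 2814 lower, and by 0.12 with one total, with 2469 higher and 2749 lower. None of the 10 genes changed direction under these or the other scalings tried, and the 7 called genes were called under each. Without mitochondrial and small RNA genes, LAMP1 and LAMP2 both had a log2 difference of -0.41, LAPTM5 of -0.53, TPCN1 of 0.81 and MCOLN1 of 1.00. The median of the 10 genes was 0.04 without mitochondrial and small RNA genes, the opposite sign from its value with the deposited scaling.

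**Figure D4:**
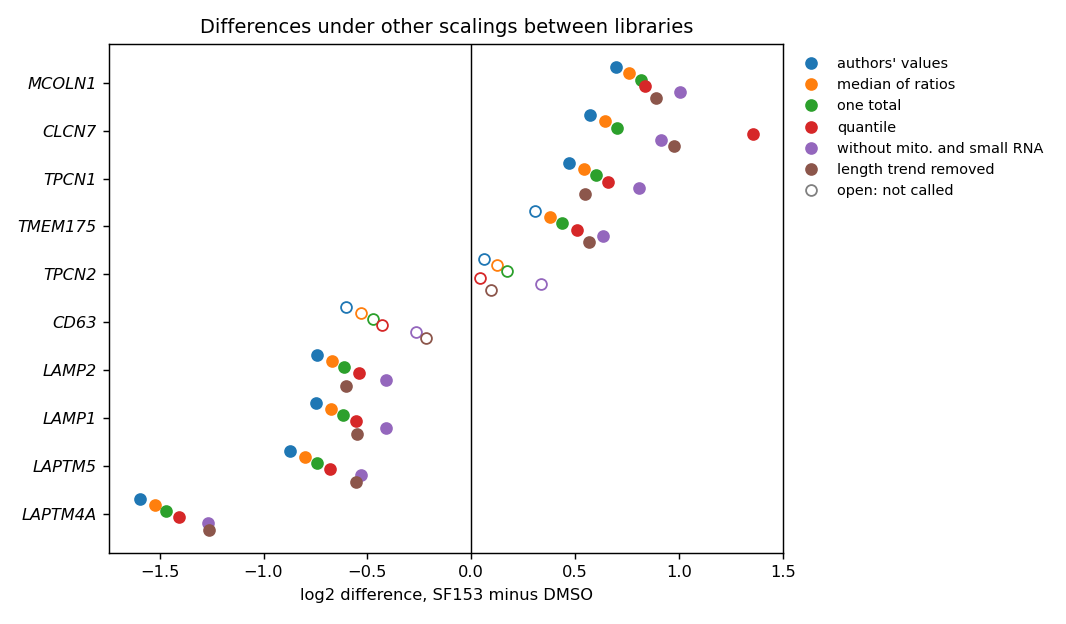
Log2 difference of each gene, SF153 minus DMSO, under the deposited scaling and 5 alternatives, each in its own colour; open circles were not called by limma. LAPTM4A, LAPTM5, LAMP1 and LAMP2 stay left of 0 and MCOLN1, CLCN7 and TPCN1 stay right of it under all 6, TMEM175 is open only under the deposited scaling, and CD63 and TPCN2 are open throughout.

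The lists of related genes were chosen by function and are described by counts only. With the deposited scaling they are to be read against the 13% of all genes called higher and the 24.3% called lower. Under the other scalings those shares were 15.9% to 35% and 13.8% to 21.2%. Of 10 other endolysosomal channels and chloride exchangers tested, 4 rose in SF153 and 1 fell (median log2 difference 0.26). CLCN6, the late endosomal relative of CLCN7, averaged 54.5 ± 2.43 in SF153 and 26.4 ± 3.76 in DMSO, a log2 difference of 1.03 ± 0.10 (limma, adjusted p = 8.88e-05). P2RX4, an ATP-gated channel that resides in lysosomes, averaged 24.6 ± 3.01 in SF153 and 15.9 ± 2.14 in DMSO (limma, adjusted p = 0.00367). The mechanosensitive channel gene TMEM63A averaged 80.6 ± 4.67 in SF153 and 51.7 ± 13.4 in DMSO (limma, adjusted p = 0.00965). LRRC8A, the core subunit of volume-regulated anion channels, fell to 4.24 ± 1.48 in SF153, against 7.90 ± 1.34 in DMSO (limma, adjusted p = 0.0115). The chloride exchangers CLCN3 (log2 difference 0.19) and CLCN5 (0.33) were not called (limma, adjusted p = 0.611 and 0.133). LRRC8A and the 3 named genes that rose kept their direction and call under all 5 other scalings.

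Of 22 lysosomal solute transporters tested, 6 rose and 3 fell, with a median of 0.21. NPC1, which exports cholesterol from lysosomes, averaged 45.8 ± 3.49 in SF153 and 25.6 ± 1.32 in DMSO, a log2 difference of 0.81 ± 0.08 (limma, adjusted p = 8.43e-05). CLN3, the Batten disease protein, averaged 58.6 ± 5.17 in SF153 and 38.7 ± 7.24 in DMSO (limma, adjusted p = 0.00784). LMBRD1, needed for the exit of vitamin B12 from lysosomes, fell to 8.47 ± 1.81 in SF153, against 14.3 ± 1.77 in DMSO (limma, adjusted p = 0.00460). SLC26A11, a sulfate transporter, averaged 5.41 ± 0.729 in SF153 and 2.29 ± 1.59 in DMSO (limma, adjusted p = 0.0178). SLC29A3, a nucleoside transporter, and MFSD1 were called lower with log2 differences of -0.41 and -0.30; SLC29A3 lost its call under all 5 other scalings, and MFSD1 under 4 of them, where it was at up to 0.03. Under the other scalings between 9 and 14 of the transporters were called higher and 1 or 2 lower, and LMBRD1 was called lower under each. The share of all genes called higher shifted as well, and was 35% in the fit without mitochondrial and small RNA genes that gave 14.

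Of 14 other proteins of the lysosomal membrane tested, none rose and 5 fell, with a median of -0.33 (limma). At an unadjusted p under 0.05 none was higher and 8 were lower, beside 45.9% of all genes in either direction. That count was 10 higher and 3 lower for the solute transporters and 4 and 1 for the channels and exchangers. It was 1 and 6 for the tetraspanins below, 3 and 3 for the PI(3,5)P2 and NAADP list and 2 and 8 for the adaptor list. TMEM9B fell to 5.27 ± 1.77 in SF153, against 10.7 ± 1.43 in DMSO (limma, adjusted p = 0.00761). LAMP5, a paralog of LAMP1 and LAMP2 with a restricted tissue range, averaged 188.7 ± 7.87 in SF153 and 264.0 ± 2.72 in DMSO, a log2 difference of -0.48 ± 0.06 (limma, adjusted p = 0.000228). TMEM9 was called lower (log2 difference -0.46) and lost its call under all 5 other scalings. SIDT1 had the largest change of the list (-1.06; limma, adjusted p = 0.0288) at a signal of 0.393 ± 0.24 in SF153 and 2.10 ± 1.33 in DMSO, below the level set for naming genes. LAMP5 lost its call under 3 of the 5 other scalings and was at up to 0.10 there, whereas LAMP1 and LAMP2 kept theirs. Under the other scalings 2 to 4 of the 14 were called lower, beside 13.8% to 21.2% of all genes. Once mitochondrial and small RNA genes were left out 3 were called higher, beside 35% of all genes, with a list median of 0.0027.

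Of 12 other tetraspanins tested, 1 rose and 6 fell, with a median of -0.24. CD81 fell to 35.0 ± 7.37 in SF153, against 65.2 ± 6.25 in DMSO (limma, adjusted p = 0.00103), and TSPAN3 to 21.8 ± 2.19 in SF153, against 38.0 ± 7.95 in DMSO (limma, adjusted p = 0.00284). TSPAN32, a tetraspanin of blood cells, rose to 31.9 ± 5.94 in SF153, against 21.9 ± 2.35 in DMSO (limma, adjusted p = 0.0163). TSPAN31 was called lower (log2 difference -0.46) and lost its call under all 5 other scalings. CD81, TSPAN3 and TSPAN32 kept their calls under the 5 other scalings. The count of tetraspanins called lower was 2 or 3 there, beside 13.8% to 21.2% of all genes. The median of the list was 0.10 without mitochondrial and small RNA genes.

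PI(3,5)P2, the lipid that opens MCOLN1 and the two-pore channels, is made by PIKFYVE with its scaffold VAC14 and the phosphatase FIG4. Of 7 genes for the turnover of PI(3,5)P2 and related lipids and for NAADP receptors, 2 rose and 2 fell, with a median of 0.09. PIKFYVE itself was not called with the deposited scaling, at 46.4 ± 1.39 in SF153 and 43.7 ± 2.31 in DMSO (limma, adjusted p = 0.358). VAC14 averaged 64.2 ± 1.38 in SF153 and 42.3 ± 2.67 in DMSO, a log2 difference of 0.59 ± 0.07 (limma, adjusted p = 0.000186), and FIG4 averaged 40.1 ± 4.93 in SF153 and 28.9 ± 1.35 in DMSO (limma, adjusted p = 0.00529). LSM12, a receptor for NAADP that acts on two-pore channels, fell to 14.6 ± 2.57 in SF153, against 26.2 ± 3.72 in DMSO (limma, adjusted p = 0.00232). MTMR2, a phosphatase that degrades PI(3,5)P2, averaged 6.19 ± 0.136 in SF153 and 8.89 ± 0.956 in DMSO (limma, adjusted p = 0.0103) and lost its call under 2 of the scalings. Once mitochondrial and small RNA genes were left out, 4 of the 7 were called higher and 1 lower, beside 35% and 13.8% of all genes.

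Of 20 genes for adaptors and for VPS proteins that act in traffic to lysosomes, 2 rose and 6 fell, with a median of -0.17. All called genes were adaptors, and VPS11, VPS18, VPS33A and VPS41 were not called. AP2S1, the small subunit of the AP-2 adaptor of clathrin-coated pits, fell to 21.9 ± 9.19 in SF153, against 72.8 ± 12.9 in DMSO, a log2 difference of -1.76 ± 0.25 (limma, adjusted p = 0.000563). AP3S1, the small subunit of AP-3, which carries lysosomal membrane proteins from endosomes, fell to 9.50 ± 1.98 in SF153, against 22.5 ± 7.93 in DMSO (limma, adjusted p = 0.00478). GGA1, an adaptor of the trans-Golgi, rose to 97.4 ± 5.15 in SF153, against 73.3 ± 5.40 in DMSO (limma, adjusted p = 0.00239). GGA2 was also called higher (log2 difference 0.30) and AP2M1 lower (-0.82). AP2S1, AP3S1, AP2M1, GGA1 and GGA2 kept their calls under the 5 other scalings. The median of the list was 0.16 and 0.03 in the fits without mitochondrial and small RNA genes and with quantile normalization, against its negative sign with the deposited scaling.

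**Figure D5:**
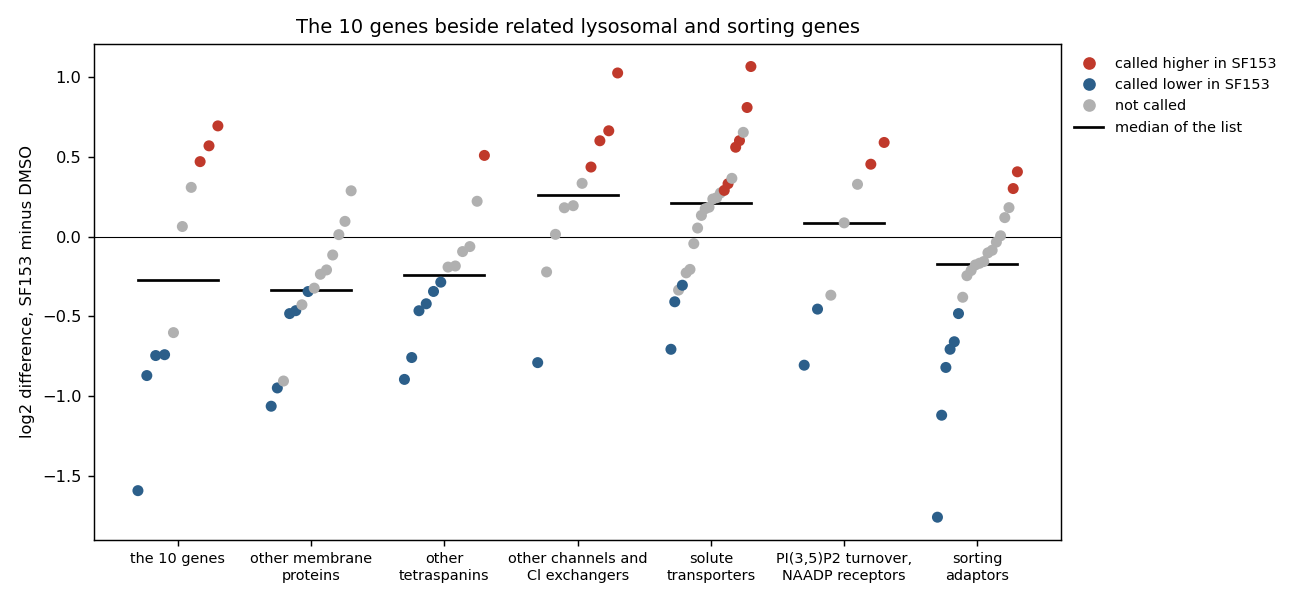
Log2 difference, SF153 minus DMSO, of the 10 genes and of the genes in 6 related lists; each point is a gene, coloured by its limma call, and the bar is the median of the list. The medians of the channels and exchangers and of the solute transporters, 0.26 and 0.21, lie above 0. Those of the other membrane proteins, the tetraspanins and the adaptors with VPS genes lie below it under the deposited scaling. Without mitochondrial and small RNA genes they lie above it.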

How the data were processed

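Total RNA libraries that keep strand were made after ribosomal RNA was digested with RNase H, per the labels' protocols. The authors deposited 1 value per gene and library, treated here as a signal: the files call it both CPM and TPM, and the columns do not share one total, so it is not plain TPM. The plan had assumed TPM, and the same test was applied. CASAVA 1.8.2, STAR, Salmon, edgeR and GRCh38 are named without roles, per the submitters' processing notes. Use of strand in counting and the gene filter are not given in the sources used here. Depth is unknown, so no counting interval is given.

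All 8 value columns were matched to libraries by name. limma 3.58.1 (R 4.3.3) was fitted, without a batch term, to log2(signal + 1), which understates changes of low genes, for genes whose mean signal was 1 or more. The script was tested on simulated data. Positions and overlaps come from GENCODE release 29 on GRCh38. The 10 genes, the lists and the tests were chosen with earlier results of these data known. From each list up to 3 called genes in each direction were named, those with the largest changes among genes with a mean of at least 5 in one treatment, plus paralogs and partners of the 10. SIDT1 and PIKFYVE were named outside this rule, after their values were seen.

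The pseudocount, the low-value filter, 5 other scalings (counting removal of a trend on transcript length and signal), the variance model, the batch, averaged libraries and single libraries were varied. Where 333 mitochondrial and small RNA genes were left out, the kept genes were brought to the mean of their own totals, a target set after a first run that used the total over all genes. The labels give each library a batch number, by which the samples were treated as paired in the fit with batch as a block. The batch difference of SF153 had r = 0.0669 with that of DMSO across genes, and deviations of same-batch libraries had r of -0.0041 to 0.0594; genes are not independent replicates. LAMP3, LAPTM4B, MCOLN2, MCOLN3 and CLCN4 were looked for by symbol and were not listed among the 17912 genes.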

Additional observations from a re-analysis of the deposited data

How the results depend on the processing

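None of the 10 genes changed direction in any of the 24 alternatives (23 for TPCN2). LAMP1, LAMP2, CLCN7, LAPTM4A and LAPTM5 were called in all of them, MCOLN1 in all but each batch alone and TPCN1 in all but batch 2 alone. Over all genes, 5785 were called, against 3429 with libraries averaged by treatment and batch, 3416 in batch 1 alone and 3594 in batch 2 alone, which have fewer libraries. Leaving out 1 library at a time gave 4886 to 5371 calls over all genes (31.4% to 34.6%) and 7 or 8 of the 10 genes. In the fit with batch as a block, 9 of the 10 were called, beside 38.2% of all genes. The 2 added were CD63 and TMEM175, and no other call among the 10 changed. With batch 2 alone, 1 of the 10 was called higher, beside 6.17% of all genes, and 5 lower, beside 17%. The fits without both SF153 libraries of a batch were chosen after seeing the data. LAMP1 over LAMP2, as a log2 ratio, was 0.22 in batch 1 and -0.22 in batch 2. The share of higher among called genes was 34.8% with the deposited scaling, 43.8% with median of ratios, 47.3% with one total, 52.9% with the trend on length removed, 53.4% with quantile normalization and 71.8% once mitochondrial and small RNA genes were left out. The number of reads is unknown, so how far depth limits TPCN2, the lowest of the genes, cannot be given.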
